A study of Mus musculus with 6 samples.

Results

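The 9 genes described here encode the adhesion molecules with which leukocytes and the endothelium hold on to each other. They are the endothelial selectins *Sele* and *Selp*, the selectin ligand *Selplg*, the endothelial ligands *Icam1*, *Icam2* and *Vcam1*, and the leukocyte integrin chains *Itgal*, *Itgam* and *Itgb2*. They were taken by gene symbol from a count table of 54532 genes, by a rule that uses no measured value, although the set was drawn up with earlier results of these data known. All 9 were among the 16568 genes with enough counts to be tested. The libraries came from lung tissue of 3 GR+/+ and 3 GRdim/dim mice, 1 library per mouse, all on a 129/SvEv x C57BL/6 background. GRdim/dim mice carry, in all cells, a point mutation in the glucocorticoid receptor (GR) that impairs its dimerization, and GR+/+ littermates served as controls. All 6 mice were young adults that went through hemorrhagic shock (HS) by blood withdrawal, re-transfusion, and resuscitation with fluid and norepinephrine under anesthesia and ventilation. Both sexes were used, with more females among the GR+/+ and more males among the GRdim/dim mice sequenced, and the labels do not say which library came from which sex. Since all 6 mice had HS, the values compare genotypes after HS and not the response to HS. Each mouse was operated on a day of its own.

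Leukocytes leave the blood in steps. P-selectin and E-selectin on the activated endothelium capture them by binding PSGL-1, the product of *Selplg*, and let them roll along the vessel wall. Chemokines and the selectins themselves then switch on the integrins LFA-1 (*Itgal* with *Itgb2*) and Mac-1 (*Itgam* with *Itgb2*), which bind ICAM-1 and ICAM-2 and bring the cell to a stop, while VCAM-1 is bound by the alpha4 integrins. Inflammatory cytokines induce *Sele*, *Icam1* and *Vcam1* in endothelial cells through NF-kB, and glucocorticoids are known to restrain this induction. In the lung many neutrophils are held in the capillaries, where selectins play a smaller part than in the venules of other organs.

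*Sele* lies at chr1:164048234-164057677 and *Selp* at chr1:164115264-164150026, both on the plus strand of GRCm38. *Icam1* lies on the plus strand at chr9:21015985-21028817. The 300-base windows around the starts of these 3 genes are shown because they are the members for which cytokine-driven transcription is best known and whose promoter was in the RefSeq table used (GRCm38.p6). They cover chr1:164047984-164048283, chr1:164115014-164115313 and chr9:21015690-21015989, plus strand. The window of *Icam1* lies almost wholly before the gene start given above. Capitals mark matches, on either strand, to GGNNNTTCC (NF-kB-like), TTCNNNGAA (STAT-like) or TGANTCA (AP-1-like).
*Sele*: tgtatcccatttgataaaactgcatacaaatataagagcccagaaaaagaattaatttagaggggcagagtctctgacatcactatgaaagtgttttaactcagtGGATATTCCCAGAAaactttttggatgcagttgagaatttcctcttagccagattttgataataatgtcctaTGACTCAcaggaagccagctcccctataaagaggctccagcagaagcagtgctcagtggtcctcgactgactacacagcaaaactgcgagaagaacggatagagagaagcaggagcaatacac
*Selp*: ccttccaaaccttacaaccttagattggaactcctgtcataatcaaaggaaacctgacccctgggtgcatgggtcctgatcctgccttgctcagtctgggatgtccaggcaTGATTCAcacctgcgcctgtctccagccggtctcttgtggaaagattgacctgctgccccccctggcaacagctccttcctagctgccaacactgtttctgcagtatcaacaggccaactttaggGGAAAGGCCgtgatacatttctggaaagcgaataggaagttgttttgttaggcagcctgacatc
*Icam1*: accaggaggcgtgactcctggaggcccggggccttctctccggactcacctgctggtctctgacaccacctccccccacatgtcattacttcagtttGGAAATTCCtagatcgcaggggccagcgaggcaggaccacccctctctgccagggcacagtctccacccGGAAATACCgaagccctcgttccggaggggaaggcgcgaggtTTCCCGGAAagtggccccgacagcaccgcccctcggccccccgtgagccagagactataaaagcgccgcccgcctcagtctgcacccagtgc
In *Sele*, the run of capitals holds an NF-kB-like match, GGATATTCC, that starts 145 bases before the gene start and overlaps a STAT-like match, TTCCCAGAA. An AP-1-like match, TGACTCA, follows 73 bases before the start. *Icam1* held the NF-kB-like matches GGAAATTCC and GGAAATACC, the latter read on the minus strand, and a STAT-like match, TTCCCGGAA. *Selp* held an AP-1-like match, TGATTCA, and an NF-kB-like match on the minus strand, printed here as GGAAAGGCC. AGAACA, a single arm of the glucocorticoid response element, was found in none of these windows. Of 32851 promoters of this length, 18.5% held the NF-kB-like, 8.3% the STAT-like, 7.81% the AP-1-like letters and 19% AGAACA, as background. The NF-kB-like motif was written after these sequences had been seen, so its share cannot serve as a test of these windows. The window of *Itgam*, the only other member with one in the table, held none of the 4. A match describes letters, not a bound site.

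The 6 libraries held 15687734 to 32082940 counts, the deepest being GR+/+ replicate 3. This library had the lowest summed level of the 9 pan-leukocyte markers (471 CPM, counts scaled to a library total of 1000000, against 649 and 705 in the other GR+/+ lungs). GRdim/dim replicate 1 had the highest (1007 CPM, against 877 and 766 in the other GRdim/dim lungs). It also stood apart in the sum of the 10 neutrophil markers, at 1127 CPM against 371 and 491. The label lung fits the markers, since the 7 epithelial genes summed to 30611 to 50690 CPM and the 11 endothelial genes to 3540 to 4943 CPM in every library. The median log2 fold change was -0.06 over the epithelial genes and 0.29 over 6 fibroblast and mesothelial genes. Of the neutrophil markers, *Ly6g* was at 6 to 56 counts and *Camp* at 0 to 96 counts, both below the limit for testing. With 3 lungs against 3, the smallest *p* that an exact two-sided permutation test of 1 gene can reach is 0.1. In whole lung, fewer cells of a type and less RNA per cell cannot be told apart.

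None of the 9 members was differentially expressed between the genotypes (adjusted *p* under 0.05 and a log2 fold change beyond 0.5, edgeR with Benjamini-Hochberg adjustment), where 0.169% of all tested genes were. DESeq2 also called 0 members, against 1.7% of its genes. In simulated libraries, the edgeR test called 36.2% of 2-fold and 88% of 4-fold differences, so a member that was not called can still differ. These shares are averages over genes of all levels and were not worked out for genes with as few counts as *Sele*. At an unadjusted *p* under 0.05, *Selplg* and *Itgam* were higher and *Sele* was lower in GRdim/dim. The shares over all tested genes at that limit were 4.91% higher and 4.68% lower. Of the 3 members, only *Itgam* stayed under it without GR+/+ replicate 3, and only *Sele* without GRdim/dim replicate 1. For the same 3 genes the ranges of GR+/+ and GRdim/dim were separate, which was so for 14.8% of all genes. Across the 9 members, 6 had positive log2 fold changes (GRdim/dim minus GR+/+) and the median was 0.24, where 50.9% of all genes were positive and their median was 0.01.

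**Figure D1:**
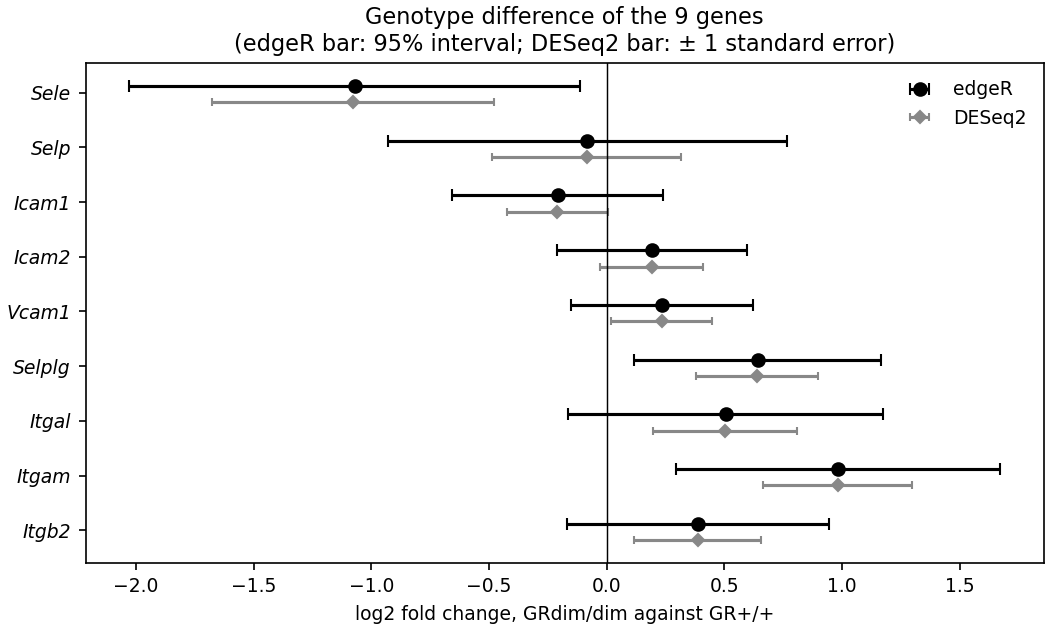
Log2 fold change of each member (x axis, GRdim/dim against GR+/+), with black circles for edgeR and its 95% confidence interval and grey diamonds for DESeq2 and its SE. The edgeR intervals of *Sele* (below 0) and of *Selplg* and *Itgam* (above 0) leave out 0 before adjustment, and no member passed after adjustment.

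*Sele*, which encodes E-selectin, made almost solely by activated endothelial cells, was the least abundant member and the only one with a negative estimate at an unadjusted *p* under 0.05. Its counts were 23, 23 and 48 in GR+/+ and 17, 13 and 9 in GRdim/dim libraries. Scaled to library size, this was 1.37, 1.38 and 1.52 CPM in GR+/+ and 0.917, 0.540 and 0.581 CPM in GRdim/dim. All 3 GRdim/dim lungs lay below all 3 GR+/+ lungs, which were close to each other. The means were 1.43 ± 0.0855 and 0.679 ± 0.207 CPM (SD, n = 3). The log2 fold change was -1.07 (SE 0.43, 95% confidence interval -2.03 to -0.11, edgeR unadjusted *p* = 0.0320, adjusted *p* = 0.469), and DESeq2 gave an unadjusted *p* of 0.0722. Leaving out 1 library gave log2 fold changes of -1.34 to -0.92, with edgeR unadjusted *p* from 0.0244 to 0.0939. With so few counts, the interval reached from almost no difference to a large one. Relative to *Cdh5* (VE-cadherin, carried by all endothelial cells), *Sele* was at 0.00141, 0.00152 and 0.00288 in GR+/+ and 0.00116, 0.000715 and 0.00103 in GRdim/dim, without overlap. The ratios of *Selp*, *Icam1*, *Icam2* and *Vcam1* to *Cdh5* overlapped. The share of all genes with separate ratios to *Cdh5* was not computed, so the separation of *Sele* is given as a description. Of 11 endothelial markers, 3 had positive estimates (median log2 fold change -0.19, summed 3540 to 4943 CPM in GR+/+ and 3680 to 4653 CPM in GRdim/dim). The 4 markers of venous endothelium had a median of 0.07 (733 to 1082 against 767 to 1008 CPM).

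*Selp* encodes P-selectin, which endothelial cells and platelets store ready-made and bring to their surface within minutes. It was at 6.27, 4.38 and 2.83 CPM in GR+/+ and at 4.80, 2.74 and 5.17 CPM in GRdim/dim lungs. The groups overlapped over nearly their whole range, with a log2 fold change of -0.08 (95% confidence interval -0.93 to 0.77, edgeR adjusted *p* = 0.975). Its sign turned when 1 library was left out, to 0.24 without GR+/+ replicate 1 and to 0.16 without GRdim/dim replicate 2. The 8 platelet markers summed to 54.9 to 76.1 CPM in GR+/+ and 63.7 to 82.7 CPM in GRdim/dim, and which cells the *Selp* reads came from was not tested. On the opposite strand, exons of Gm16548 overlap 9.93% of the exon bases of *Selp*, and that gene held 0 to 6 counts.

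*Selplg*, at chr5:113818536-113832644 on the minus strand, encodes PSGL-1, which nearly all leukocytes carry and which needs sugar chains added before it can bind selectins. Its levels were 48.4, 45.6 and 25.7 CPM in GR+/+ and 66.6, 56.1 and 63.7 CPM in GRdim/dim. Each GRdim/dim lung lay above each GR+/+ lung, and GR+/+ replicate 3 was far below the rest. The log2 fold change was 0.64 (SE 0.24, 95% confidence interval 0.12 to 1.17, edgeR unadjusted *p* = 0.0212, adjusted *p* = 0.431). Without GR+/+ replicate 3 it was 0.40 (edgeR unadjusted *p* = 0.0519), and leaving out any 1 library gave 0.40 to 0.81. With sex-linked expression as a covariate it was 0.53 (edgeR unadjusted *p* = 0.0530).

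**Figure D2:**
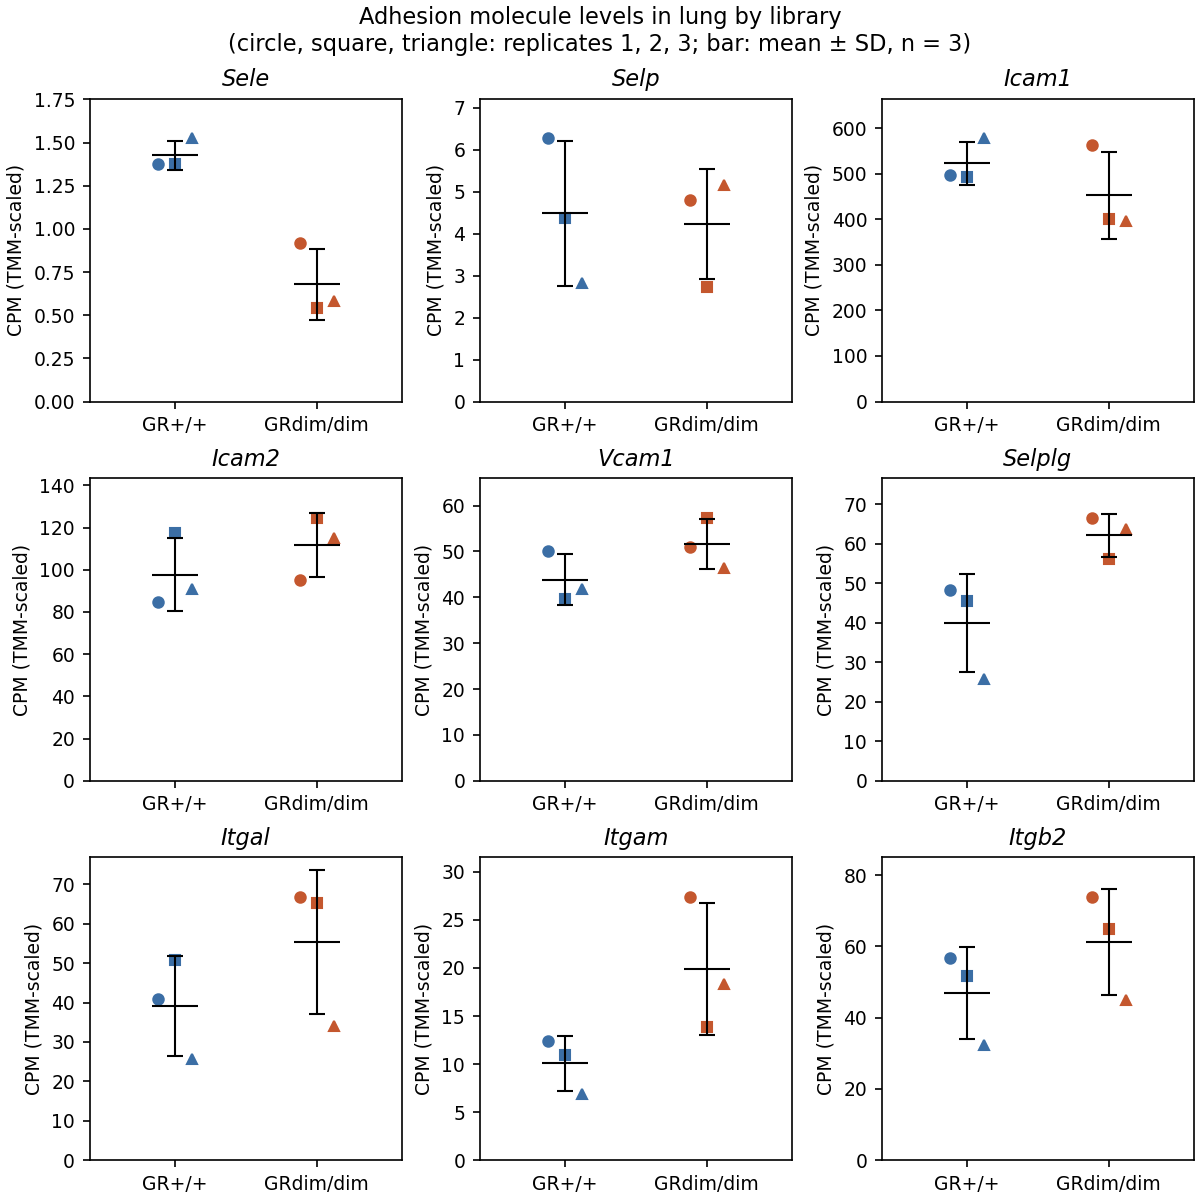
CPM of each of the 9 members (y axes from 0, scaled by gene) in the 3 GR+/+ and 3 GRdim/dim libraries, 1 point per mouse with a shape for each replicate number and bars for mean ± SD (n = 3). GRdim/dim points lie wholly below those of GR+/+ for *Sele* and wholly above them for *Selplg* and *Itgam*, and the 6 other members overlap.

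The endothelial ligands of the integrins overlapped between the genotypes. *Icam1*, whose product binds LFA-1 and Mac-1 and is raised by cytokines on endothelium and epithelium alike, was at 498, 493 and 578 CPM in GR+/+ and 563, 401 and 395 CPM in GRdim/dim. GRdim/dim replicate 1 lay among the GR+/+ lungs and the other GRdim/dim lungs lay below them. The log2 fold change was -0.21 (SE 0.20, 95% confidence interval -0.66 to 0.24, edgeR adjusted *p* = 0.821), and it was smallest without GRdim/dim replicate 3 (-0.12) and largest without GRdim/dim replicate 1 (-0.39). Gm47079 overlaps 11.7% of the exon bases of *Icam1* on the opposite strand, and at 0 to 14 counts it was negligible beside the 6118 to 18181 counts of *Icam1*.

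*Icam2*, at chr11:106377656-106388075 on the minus strand, encodes a ligand of LFA-1 that resting endothelium carries all the time. It was at 84.9, 117 and 90.8 CPM in GR+/+ and 95.1, 125 and 115 CPM in GRdim/dim, with a log2 fold change of 0.19 (95% confidence interval -0.21 to 0.60, edgeR adjusted *p* = 0.814). *Vcam1*, at chr3:116109949-116129688 on the minus strand, encodes the ligand of alpha4 beta1 integrin. It was at 50.1, 39.6 and 41.8 CPM in GR+/+ and 51.0, 57.4 and 46.4 CPM in GRdim/dim, with a log2 fold change of 0.24 (95% confidence interval -0.15 to 0.62, edgeR adjusted *p* = 0.746). For both, the ranges overlapped. With 1 library left out, *Icam2* was at 0.11 (without GR+/+ replicate 1) to 0.35 (without GR+/+ replicate 2), and *Vcam1* at 0.15 (without GRdim/dim replicate 2) to 0.35 (without GR+/+ replicate 1). The intervals of the 3 ligands all leave out a log2 fold change of 1 in either direction. The cytokine-induced genes did not share a direction: *Sele* and *Icam1* had negative and *Vcam1* positive estimates, of which that of *Sele* alone had an unadjusted *p* under 0.05.

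All 3 chains of the leukocyte integrins had positive estimates, that of *Itgam* being the largest. *Itgam*, at chr7:128062640-128118491 on the plus strand, encodes the alpha chain of Mac-1, found mainly on neutrophils, monocytes and NK cells. It was at 12.4, 11 and 6.89 CPM in GR+/+ and 27.4, 13.9 and 18.3 CPM in GRdim/dim, from 183 to 508 counts. No GRdim/dim lung was as low as any GR+/+ lung, and GRdim/dim replicate 1 was the highest. The log2 fold change was 0.98 (SE 0.31, 95% confidence interval 0.29 to 1.67, edgeR unadjusted *p* = 0.00962, adjusted *p* = 0.342), and it was 0.69 to 1.19 when 1 library was left out, lowest without GRdim/dim replicate 1 (edgeR unadjusted *p* = 0.0502). *Itgam* came nearest to a call, with a DESeq2 adjusted *p* of 0.0870. It was called when no low-count genes were filtered out (edgeR adjusted *p* = 0.0233), a setting that called 1.66% of all genes, and adjusted *p* ranged from 0.0233 to 0.580 over the alternatives. Exons of Gm49368 on the same strand overlap 68.7% of the exon bases of *Itgam*, and that gene held 0 to 7 counts. How reads in the shared exons were counted is not given in the sources used here, so the level of *Itgam* per length is uncertain.

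*Itgal*, at chr7:127296260-127335138 on the plus strand, encodes the alpha chain of LFA-1, which lymphocytes carry in the largest amounts. It was at 40.8, 50.8 and 25.6 CPM in GR+/+ and 66.8, 65.1 and 34.2 CPM in GRdim/dim. *Itgb2*, at chr10:77530252-77565708 on the plus strand, encodes the beta chain that both integrins share. It was at 56.7, 51.7 and 32.2 CPM in GR+/+ and 73.9, 64.9 and 44.9 CPM in GRdim/dim. For both genes, replicates 1 and 2 of GRdim/dim were above every GR+/+ lung and replicate 3 was not. The log2 fold changes were 0.51 for *Itgal* (95% confidence interval -0.16 to 1.18, edgeR adjusted *p* = 0.660) and 0.39 for *Itgb2* (95% confidence interval -0.17 to 0.95, edgeR adjusted *p* = 0.694). Both were smallest without GR+/+ replicate 3 (0.27 and 0.18) and largest without GRdim/dim replicate 3 (0.76 and 0.57).

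Markers shared by all leukocytes had positive estimates beside these 4 genes, and edgeR called no marker. DESeq2, which called 1.7% of its genes, called some markers of the narrower lists as higher in GRdim/dim. Among them were the neutrophil markers *Ngp* (log2 fold change 2.73, DESeq2 adjusted *p* = 2.24e-05), *Retnlg* (1.10, 0.0225) and *Camp* (3.87, 0.0121). The T cell marker *Trac* (1.32, 0.0253), the platelet marker *Pf4* and the endothelial marker *Cldn5* were also called. Of the 9 pan-leukocyte markers, 9 had positive log2 fold changes with a median of 0.57, and 6 had an unadjusted *p* under 0.05 (4.91% of all genes were higher at that limit). Without GR+/+ replicate 3 the median was 0.34, with 3 such markers, and without GRdim/dim replicate 1 it was 0.50, also with 3. None of the 9 was at 0 counts. Their summed level was 471 to 705 CPM in GR+/+ and 766 to 1007 CPM in GRdim/dim, without overlap. *Ptprc*, which encodes the common leukocyte antigen CD45, was at 105, 112 and 63.6 CPM in GR+/+ and 206, 176 and 118 CPM in GRdim/dim (log2 fold change 0.84, SE 0.26, edgeR adjusted *p* = 0.332). As with *Ptprc*, each of the 4 leukocyte members was lowest of all 6 libraries in GR+/+ replicate 3. Among narrower lists, 7 of 8 tested neutrophil markers were positive (median 0.82, and 0.17 without GRdim/dim replicate 1). Of these 8, *Ngp* and *Retnlg* were higher in GRdim/dim without overlap (7.77% of all genes were), and the others overlapped. All 10 neutrophil markers, tested or not, summed to 275 to 521 CPM in GR+/+ and 371 to 1127 CPM in GRdim/dim. *S100a8* (397 CPM) and *S100a9* (348 CPM) made up most of the sum in GRdim/dim replicate 1. The medians of the lymphocyte lists were 0.83 for T cells (8 of 9 positive, 26.9 to 48.5 against 46.6 to 66.9 CPM), 0.93 for B cells (8 of 8 positive, 31.7 to 71.4 against 69.6 to 113 CPM) and 1.04 for NK cells (7 of 7 positive, 6.87 to 18.6 against 20.6 to 34.3 CPM). Monocyte and macrophage markers had a median of 0.09 (7 of 10 positive, 2752 to 3411 against 3062 to 3312 CPM), which became -0.04 without GR+/+ replicate 3 and -0.21 without GRdim/dim replicate 1. Their estimates ran from -0.70 (*Marco*) to 0.80 (*Ly6c2*). Most of their summed level was *Lyz2*, at 2412 to 3176 CPM in GR+/+ and 2807 to 2953 CPM in GRdim/dim. The part of leukocyte number in the values of *Selplg*, *Itgal*, *Itgam* and *Itgb2* was not tested.

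Set against *Ptprc* within each library, none of the 4 was higher in GRdim/dim without overlap. *Itgb2* was at 0.539, 0.463 and 0.507 of *Ptprc* in GR+/+ and 0.359, 0.368 and 0.381 in GRdim/dim, so that the GRdim/dim ratios were lower without overlap. *Itgal* was at 0.389, 0.456 and 0.403 in GR+/+ and 0.325, 0.369 and 0.289 in GRdim/dim, also lower without overlap. *Ptprc* itself was higher in GRdim/dim without overlap, which lowers any ratio to it. The share of all genes with separate ratios to *Ptprc* was not computed, so these separations are given as a description. The ratios of *Selplg* (0.404 to 0.461 against 0.318 to 0.539) and *Itgam* (0.0984 to 0.118 against 0.0787 to 0.155) overlapped. The lower ratios of *Itgb2* and *Itgal* depended on the denominator. With the sum of all 9 pan-leukocyte markers in place of *Ptprc*, chosen after the data had been seen, all 4 ratios overlapped, with *Itgb2* at 0.0763 ± 0.00973 in GR+/+ and 0.0687 ± 0.00869 in GRdim/dim (SD, n = 3).

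**Figure D3:**
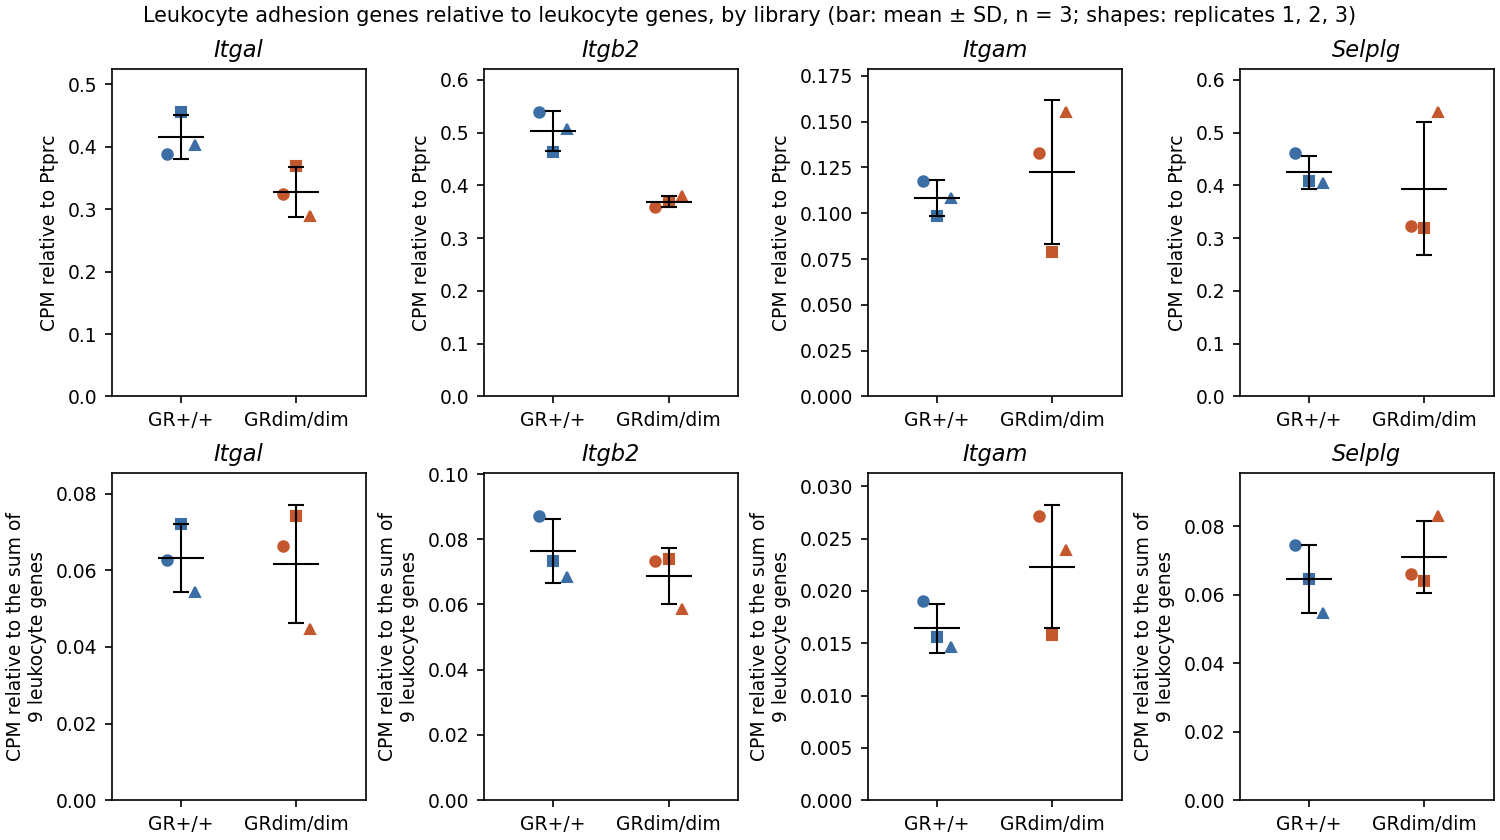
CPM of the 4 leukocyte members relative to *Ptprc* (upper row) and to the summed CPM of 9 pan-leukocyte markers (lower row) on the y axes from 0, 1 point per mouse, with bars for mean ± SD (n = 3). *Itgal* and *Itgb2* relative to *Ptprc* are lower in all GRdim/dim lungs, and every ratio in the lower row overlaps between the genotypes.

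The balance between the integrin chains varied among GRdim/dim lungs. The ratio of *Itgam* to *Itgb2* was nearly the same in the GR+/+ lungs (0.218, 0.212 and 0.214). In GRdim/dim it was 0.371 and 0.408 in replicates 1 and 3 and 0.214 in replicate 2, which is the GR+/+ level. For *Itgal* to *Itgb2* the ratios were 0.720, 0.984 and 0.794 in GR+/+ and 0.904, 1.0 and 0.760 in GRdim/dim, without any separation.

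Levels of different genes were compared as CPM per kilobase of exon. In GR+/+ lungs *Icam1* was highest, at 119.9 ± 10.9, followed by *Icam2* at 51.3 ± 9.09 (SD, n = 3), and the range of neither touched the next gene. *Itgb2* (10.6 to 18.6), *Selplg* (6.02 to 11.3), *Itgal* (3.90 to 7.74) and *Vcam1* (4.46 to 5.65) came next, and each overlapped its neighbour in this order. *Itgam* (1.37 to 2.46) was below *Vcam1* without overlap and just touched *Selp* (0.641 to 1.42), and *Sele* (0.472 to 0.524) was below *Selp* without overlap. The place of *Itgam* in this order is uncertain, since Gm49368 shares 68.7% of its exon bases and how those reads were counted is not given. The order of the means was the same in GRdim/dim lungs, from 103.9 ± 21.9 for *Icam1* to 0.233 ± 0.0709 for *Sele*. There the gap between *Vcam1* (5.23 to 6.47) and *Itgam* (2.76 to 5.45) closed, while *Selplg* (13.1 to 15.6) and *Itgal* (5.20 to 10.2) no longer overlapped. Over all 6 libraries, 97.9% of tested genes had a lower level per kilobase than *Icam1*, 50.6% a lower one than *Vcam1*, and 7.05% a lower one than *Sele*.

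**Figure D4:**
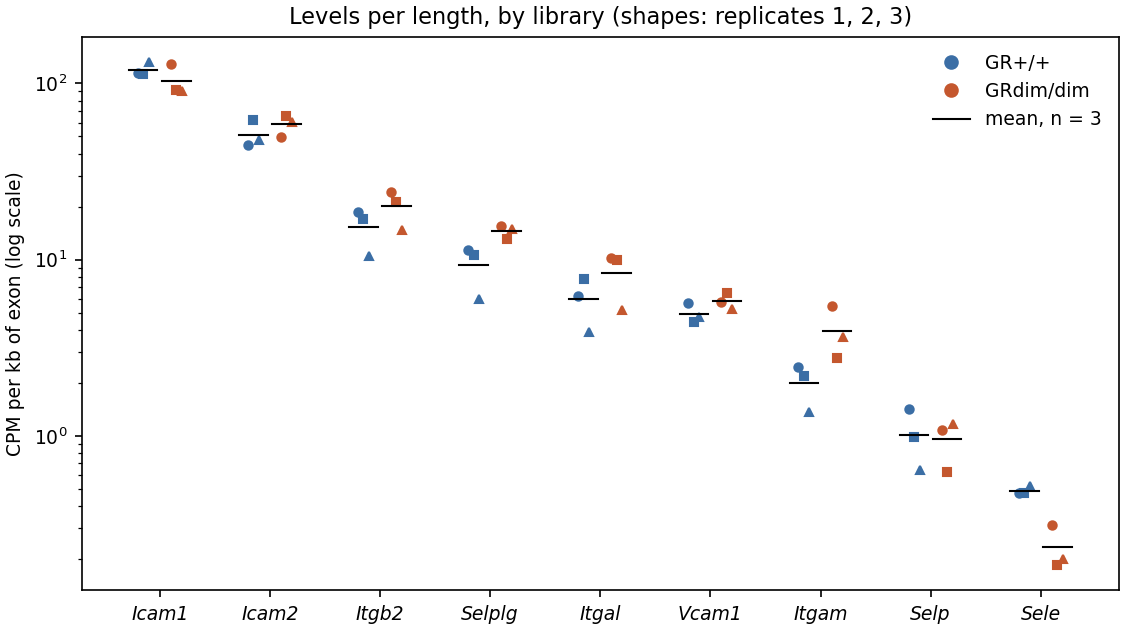
Level of each member in CPM per kilobase of exon (y axis, log scale), 1 point per library with a shape for each replicate number and a line at the mean of each genotype (n = 3). *Icam1* is at 90.6 to 132 and *Sele* at 0.185 to 0.524, and the order of the means is the same in both genotypes. The place of *Itgam* is uncertain, since it shares exons with Gm49368.

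The genes that serve these adhesion molecules were listed in 8 groups of 84 genes, of which 78 could be tested. None was called by edgeR. At an unadjusted *p* under 0.05, 13 were higher and 2 lower in GRdim/dim, where 4.91% of all genes were higher and 4.68% lower. Without GR+/+ replicate 3 these counts were 5 and 3, and without GRdim/dim replicate 1 they were 8 and 1. The median log2 fold change was 0.18 (0.01 over all genes). Without overlap, 16 were higher and 3 lower, where 7.77% of all genes were higher and 7.05% lower. Leaving out GR+/+ replicate 3 or GRdim/dim replicate 1 changed the medians most for the other integrins (0.40, then 0.26 and 0.17), integrin activation (0.30, then 0.17 and 0.34) and shedding (0.11, then 0.08 and -0.01). The changes were smaller for transmigration (-0.13, then -0.19 and -0.21), the inducing cytokines (0.33, then 0.26 and 0.29) and the selectin partners (-0.04, then -0.06 and 0.01). The 6 genes below the limit for testing were *Glycam1*, *Icam4*, *Madcam1*, *Elane*, *Ifng* and *Lta*, at 0 to 12 counts.

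Among the partners of the selectins (17 tested, median log2 fold change -0.04), 3 genes were higher and 1 lower at an unadjusted *p* under 0.05. The higher genes included *Cd34*, a sialomucin of endothelium (108 ± 2.88 CPM in GR+/+ and 145 ± 12.6 in GRdim/dim, log2 fold change 0.43, edgeR adjusted *p* = 0.411), and *B4galt1*, a galactosyltransferase that builds selectin-binding sugars (0.61, adjusted *p* = 0.449). *Chst4*, which adds sulfate to selectin ligands, was the lower one (-0.95, edgeR adjusted *p* = 0.50). *Podxl*, the most abundant gene of this group, overlapped at 286 ± 71.7 CPM in GR+/+ and 267 ± 70.7 in GRdim/dim.

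Of the other integrin chains, 9 of 10 had positive estimates (median 0.40), and which cells their reads came from was not tested. *Itgax*, the alpha chain of the beta2 integrin CD11c, was at 26.3 ± 3.66 CPM in GR+/+ and 36.3 ± 6.10 in GRdim/dim (log2 fold change 0.47, edgeR adjusted *p* = 0.491). *Itga6*, a laminin receptor chain, had a log2 fold change of 0.81 (edgeR adjusted *p* = 0.387). *Itgb1*, the most abundant, was at 831 ± 63.7 and 888 ± 85.5 CPM in the same order, and *Itga1* at 166 ± 22 and 135 ± 33.4 CPM.

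Of the other immunoglobulin-type ligands (6 tested, median 0.14), *Jam2*, an endothelial junction protein that alpha4 beta1 integrin can bind, came closest to a call. It was at 51.3, 63.7 and 46.4 CPM in GR+/+ and 128, 140 and 77.6 CPM in GRdim/dim. The lowest GRdim/dim lung was above the highest GR+/+ lung, and the log2 fold change was 1.10 (SE 0.23, edgeR adjusted *p* = 0.131). DESeq2 called it, with an adjusted *p* of 0.00309. *Thy1*, which can bind Mac-1 and is also a T cell and fibroblast gene, had a log2 fold change of 0.68 (edgeR adjusted *p* = 0.487). *Alcam* and *F11r*, the most abundant of the group, overlapped between the genotypes.

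Genes that switch integrins on or off were positive for 12 of 15 (median 0.30). *Cytip*, which restrains LFA-1 through cytohesin-1 (log2 fold change 0.62, edgeR adjusted *p* = 0.366), and *Vav1*, an exchange factor of hematopoietic cells (0.51, adjusted *p* = 0.494), had an unadjusted *p* under 0.05 and were higher. *Rasgrp2*, the exchange factor that activates Rap1 in platelets and neutrophils, was lower, at 150 ± 65.4 CPM in GR+/+ and 84.0 ± 22.3 in GRdim/dim (log2 fold change -0.84, edgeR adjusted *p* = 0.431). The abundant *Tln1* (talin) overlapped, at 533 ± 123 and 495 ± 41.4 CPM, whereas *Rap1b* was higher without overlap, with a log2 fold change of 0.26 (edgeR adjusted *p* = 0.708).

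For transmigration, 2 of 6 genes were positive (median -0.13). *Sirpa*, a receptor of myeloid cells for CD47, was higher (log2 fold change 0.45, edgeR adjusted *p* = 0.473), while the endothelial *Pecam1* was at 700 ± 132 CPM in GR+/+ and 515 ± 61 in GRdim/dim (-0.44, adjusted *p* = 0.541). *Cdh5* was at 805 ± 242 and 703 ± 121 CPM. Of the proteases that shed adhesion molecules, 0 of 4 had an unadjusted *p* under 0.05, with *Adam10* at 0.03 and *Adam17*, a sheddase of many surface proteins, at 0.02 on the log2 scale.

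Among inducing cytokines and their receptors, 7 of 8 were positive (median 0.33) and 4 were higher without overlap (7.77% of all genes were). *Il1b*, an inducer of *Sele*, *Icam1* and *Vcam1*, was at 37.1 ± 9.69 CPM in GR+/+ and 64.9 ± 10.9 in GRdim/dim (log2 fold change 0.81, SE 0.22, edgeR adjusted *p* = 0.262). *Tnf*, the other classical inducer, had the group's only negative estimate (-0.40, edgeR adjusted *p* = 0.838). *Tnfrsf1a* and *Ifngr1*, the most abundant of the group, overlapped between the genotypes.

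Of 12 transcriptional regulators (median 0.10), 2 were higher and 0 lower at an unadjusted *p* under 0.05. *Klf2*, which keeps endothelium quiescent, was among them, at 59.8 ± 22 CPM in GR+/+ and 136 ± 83.9 in GRdim/dim. Its log2 fold change was 1.19 (edgeR adjusted *p* = 0.471), and its libraries overlapped. The NF-kB genes were close between genotypes, with log2 fold changes of 0.10 for *Rela* and 0.09 for *Nfkb1*, and *Nfkbia*, the inhibitor, was at -0.23 (edgeR adjusted *p* = 0.773). *Stat3*, the most abundant regulator, was at 355 ± 36.2 and 446 ± 51.8 CPM.

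**Figure D5:**
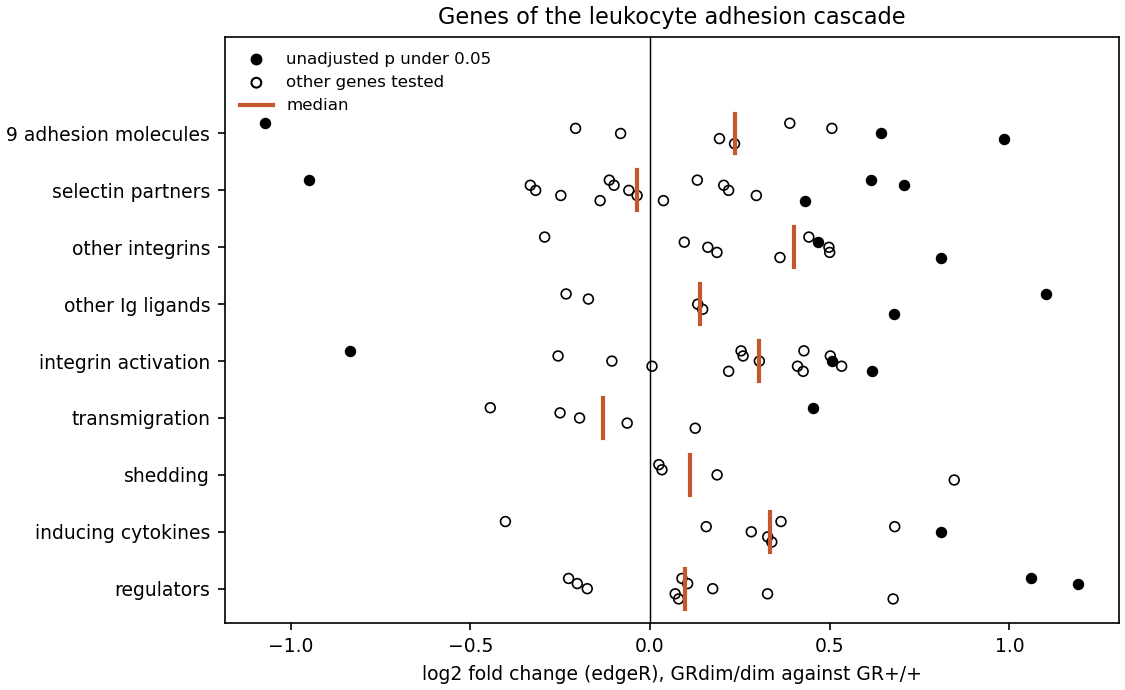
Log2 fold change (x axis, GRdim/dim against GR+/+, edgeR) of the 9 members (top row) and of the 78 tested genes in 8 groups that serve leukocyte adhesion, 1 point per gene, filled where the unadjusted *p* was under 0.05, with a line at each median. The medians of the 8 groups run from -0.13 (transmigration) to 0.40 (other integrins), and no gene was called by edgeR.

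The 3 protein-coding genes whose levels over the 6 libraries were most like those of a member were found by the root mean square (RMS) difference of log2 CPM, each gene centred on its own mean. Of the members themselves, *Itgal* and *Itgb2* were the closest pair, at 0.183, and *Selplg* and *Itgam* came next at 0.259. *Itgal* was closest to *Fyb* (0.0349), then *Bcl11b* and *Prkcq*, and *Itgb2* to *Fgd3* (0.0769), *Myo1f* and *Tmem71*. *Itgam* was followed by *Lilr4b* (0.114), *Tgfbi* and *Slc39a14*, and *Selplg* by *Icosl* (0.0958) and *Ms4a4a*. On the endothelial side, *Sele* was closest to *Gdpgp1* (0.0859), *Amot* and *Slc25a48*, and *Selp* to *Btbd19* (0.0682), *Taf1c* and *Scamp5*. *Icam1* was closest to *Arhgef26* (0.0255), *Bbs7* and *Zfp266*, *Icam2* to *Tspyl5* (0.0614), *Rgs11* and *Nmnat1*, and *Vcam1* to *Cdc5l* (0.0478), *Cpeb2* and *Bicd2*. These likenesses rest on 6 libraries and are given as a description.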

How the data were processed

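Lung RNA of 3 GR+/+ and 3 GRdim/dim mice was sequenced as poly(A)-captured libraries. Per gene, the authors deposited raw counts of reads, whole numbers without normalization or pooling. Their processing notes name mm10 and DESeq2, while the aligner, the counter and the use of strand are not given in the sources used here. Groups and replicate numbers come from the sample titles, and libraries of a group differed by more than sampling noise (chi-square of 19.2 to 62.9 per degree of freedom).

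Counts were fitted over all genes with edgeR 4.0.16 in R 4.3.3 by its quasi-likelihood test (glmQLFit in robust mode, then glmQLFTest) after filterByExpr and TMM scaling, and *p*-values were adjusted by Benjamini-Hochberg over 16568 genes. CPM use library sizes multiplied by TMM factors. Log2 values for likeness used a prior count of 2. Confidence intervals (95%) came from the standard error of that fit. Scripts were tested on simulated data. Alternatives were DESeq2 1.42.0, RLE scaling, no filter, at least 10 counts in every library, a block for the replicate number, sex-linked expression as a covariate, and each library left out in turn. Coordinates and exon overlaps are from GENCODE M21 (GRCm38), which matched the deposited coordinates of all 9 members. Promoter sequences are from RefSeq (GRCm38.p6), whose table matched 4 members. The NF-kB-like motif was written after these sequences had been seen.

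The members and gene lists were chosen with earlier results of these data known. All members are described in full. Of the pathway lists, the text names called genes, otherwise genes with an unadjusted *p* under 0.05, plus the 2 most abundant per list. Some genes this rule covers are not reported here. *Rap1b*, *Rela*, *Nfkb1*, *Nfkbia* and *Tnf* are named in part for their roles. Marker lists are mostly given by counts and sums.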

Additional observations from a re-analysis of the deposited data

How the results depend on the processing

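The number of differentially expressed genes over all genes was 28, and it depended on the processing: 522 with no filter on low counts, 274 with DESeq2, and 4 to 22 when 1 library was left out, lowest without GR+/+ replicate 2. The cause was not tested. Of the 9 members, 0 were called, and 1 with no filter (*Itgam*, log2 fold change 0.98, adjusted *p* = 0.0233). Of the pathway genes, 0 were called, 6 with no filter, 2 with DESeq2 (*Jam2* among them) and 0 to 1 with 1 library left out, the latter *Jam2* without GRdim/dim replicate 3 (adjusted *p* = 0.0488). The direction of the members held in 105 of 107 alternative values. The exceptions were *Selp* without GR+/+ replicate 1 (0.24) and without GRdim/dim replicate 2 (0.16), within a range of -0.34 to 0.24 over the libraries left out. *Sele* was not tested when at least 10 counts were required in every library, since 1 library held 9. Without GR+/+ replicate 3, 1 member had an unadjusted *p* under 0.05 and was higher (*Itgam*), and 5 pathway genes were higher and 3 lower, with 3 of 9 pan-leukocyte markers higher. Without GRdim/dim replicate 1, 1 member was lower at that limit (*Sele*), 8 pathway genes were higher and 1 lower, 3 pan-leukocyte markers were higher, and the median of the neutrophil markers went from 0.82 to 0.17. Leaving out these libraries for list counts was chosen after the data had been seen. With the replicate number as a replicate block, 34 genes, 0 members and 0 pathway genes were called. In that setting *Itgal* (edgeR unadjusted *p* = 0.0211) and *Itgb2* (0.0416) were under the unadjusted limit, and *Sele* (0.0504) was over it. Same-numbered libraries deviated together with correlations of 0.218, 0.0361 and -0.0548, so the numbers were not taken as pairs. With sex-linked expression as a covariate, the log2 fold change was 0.74 for *Itgam* and -0.39 for *Selp*. Depth limits *Sele* most, at 9 to 48 counts.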
